A study of Mus musculus with 12 samples.

Results

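Transcripts of 34 genes of sterol and fatty acid synthesis were examined in the 3T3-L1 line of fibroblasts, which derives from mouse embryos and is known for its capacity to become adipocytes in an inducing medium. The genes were taken by symbol from a list of enzymes of cholesterol and fatty acid synthesis, the SREBP proteins that control them, and genes of sterol uptake and efflux. The rule used their function and no measured value, although it was written with earlier results of these data known. All 34 were among the 56941 genes of the deposited count table, and all 34 were among the 14810 genes that passed the filter on low counts. They fall into 7 genes of the mevalonate pathway, 11 genes from squalene to cholesterol, 4 SREBP regulators, 8 genes of fatty acid synthesis and desaturation, and 4 genes of sterol transport, efflux, and uptake control.

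The study asked how fibroblasts respond to type 2 cytokines, alone and during other inflammation. In the RNA-Seq experiment, cells were cultured for 24 hours in 4 conditions with 3 libraries each. Control cells received no cytokine, and the IL-4/13 cells received IL-4 and IL-13 at 50 ng/mL each. The Inf cells received a mixture of 3 inflammatory cytokines, with 20 ng/mL TNF-α, 50 ng/mL IL-17A, and 0.5 ng/mL IL-1β. The IL-4/13 + Inf cells received all 5 cytokines. All groups were the same unmodified cell line, so the results describe 1 line in culture and not skin. The labels do not say whether the 3 libraries of a condition came from separate cultures, so p-values measure the spread between these libraries, which may be technical.

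Cholesterol is made from acetyl-CoA by way of mevalonate, farnesyl pyrophosphate, squalene, and lanosterol, and fatty acids are made from the same acetyl-CoA by way of malonyl-CoA. When sterols in the endoplasmic reticulum are low, SCAP carries the SREBP transcription factors to the Golgi, where proteases release their active part. When sterols are high, INSIG proteins hold SCAP back and the synthesis genes are less transcribed. An excess of sterol also yields oxysterols, which activate the LXR receptors. LXRs raise the transcription of the exporters Abca1 and Abcg1, of Mylip, a ubiquitin ligase that promotes the breakdown of lipoprotein receptors, and of Srebf1. In fibroblasts this balance keeps the sterol content of the membranes steady.

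Total counts per library ranged from 13446005 to 20775769, and single genes are given as CPM, which are counts scaled to library size with edgeR's TMM factors. Fibroblast marker genes were abundant, with a sum of 11768 to 19448 CPM over 11 genes, lowest in the 3 IL-4/13 + Inf libraries. Of 10 adipocyte markers, 8, among them Adipoq, Plin1, and Cidec, had 3 or fewer counts in every library, and the 10 summed to 67.4 to 91.2 CPM. Macrophage markers summed to 22.6 to 28.6 CPM over 12 genes without Inf and to 48.7 to 65.5 CPM with it, with 5 of the 12 at 3 or fewer counts in every library. Cd14 was the highest of them, at 13.1 to 51.8 CPM over all libraries, and every other macrophage marker was at most 4.29 CPM. T cell, endothelial, and keratinocyte markers summed to at most 6.37 CPM. The third Inf library stood most apart from its group, with a chi-square per degree of freedom of 8.58 and 8.21 against the other Inf libraries and 2.27 to 4.64 in all other pairs of one condition. Values without it are given beside some of the results that it changed.

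The synthesis genes were strongly expressed in every condition. The median member had 163 CPM in control, against 23.7 to 24.3 CPM over the conditions for the median of all tested genes, and the 34 members summed to a mean of 8647 CPM in control cells, 8604 CPM after IL-4/13, 8920 CPM after Inf, and 8386 CPM after IL-4/13 + Inf. Compared per length, as control CPM per kilobase of the longest annotated transcript, Scd2, a stearoyl-CoA desaturase, had the highest level at 318, followed by Msmo1, a lanosterol demethylation enzyme, at 175 and Fdps, farnesyl pyrophosphate synthase, at 141. The exporters had the lowest levels, with 2.14 for Abca1 and 0.204 for Abcg1. The members also varied little between libraries of one condition, with a median coefficient of variation of 2.92% to 5.45% against 5.82% to 8.37% for all tested genes. This comparison was not matched for expression, which was higher in the members. Abcg1, the least expressed, varied most, from 19.3% to 30.1%, and had 15 counts in its lowest library.

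**Figure D1:**
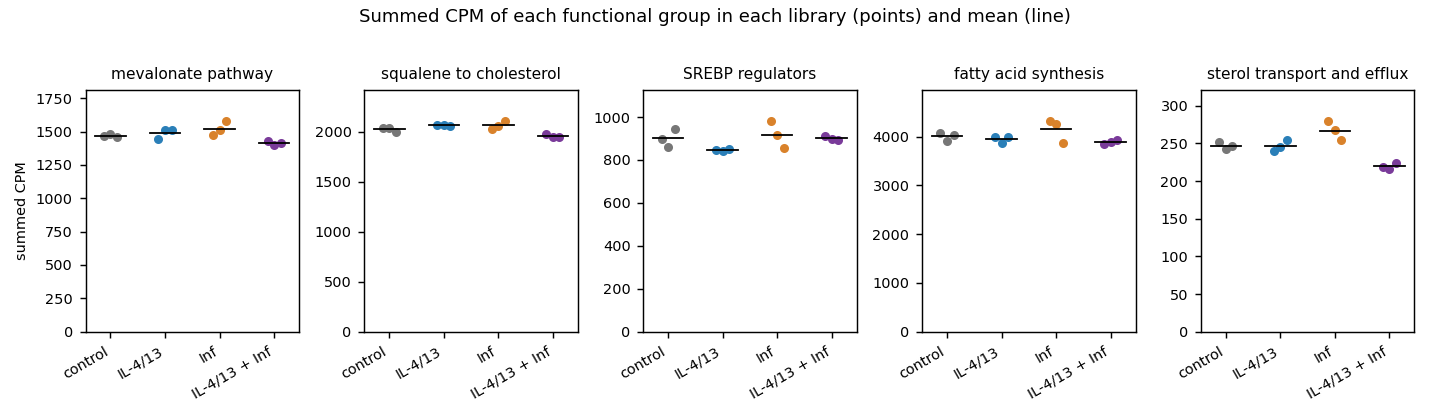
Summed CPM of the members of each functional group (y axes, each starting at 0) in the 3 libraries of each condition (points), with the mean (line). The 4 sterol transport, efflux, and uptake genes sat at 254 to 279 CPM with Inf and at 216 to 224 CPM with IL-4/13 + Inf, and the mevalonate pathway genes had group means of 1415 to 1522 CPM.

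Promoter sequences were matched for 26 of the 34 members, with RefSeq positions on GRCm38.p6, and searched on both strands from 250 bases before to 50 bases after the annotated start. The 8 members without a match were Fdps, Fdft1, Sqle, Scd1, Scd2, Fads1, Stard4, and Abcg1. The sequence TCACNCCAC, an SREBP element of the sterol type, occurred in 1 of the 26 (3.85%), Hmgcs1, against 1.44% of 27025 genes with a window. Only that exact sequence within the window was sought, so the lack of a match says nothing about SREBP at that gene. The sequence CCAAT, bound by NF-Y, a usual partner of SREBPs, occurred in 20 of the 26 (76.9%) against 41.1% of all genes. All genes with a window were counted whether or not they were expressed here, so these shares were not matched for expression. The LXR-type sequence of 2 copies of AGGTCA, 4 bases apart, occurred in 0 of the 26 and in 4 of all genes, so it was rare throughout, and its absence from a window says nothing about LXR at that gene. No match of one overlapped a match of another. The 250 bases before the start are shown for Hmgcs1, as the member that carried the sterol element, and for 3 members that rose with Inf, with TCACNCCAC and CCAAT matches on either strand in capitals.
Hmgcs1 (chr13:119690101-119690350, plus strand): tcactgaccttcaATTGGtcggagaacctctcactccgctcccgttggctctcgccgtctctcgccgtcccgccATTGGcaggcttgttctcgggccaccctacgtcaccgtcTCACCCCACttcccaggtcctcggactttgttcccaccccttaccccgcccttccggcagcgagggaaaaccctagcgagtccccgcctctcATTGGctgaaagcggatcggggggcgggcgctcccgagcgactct
Sc5d (chr9:42264301-42264550, minus strand): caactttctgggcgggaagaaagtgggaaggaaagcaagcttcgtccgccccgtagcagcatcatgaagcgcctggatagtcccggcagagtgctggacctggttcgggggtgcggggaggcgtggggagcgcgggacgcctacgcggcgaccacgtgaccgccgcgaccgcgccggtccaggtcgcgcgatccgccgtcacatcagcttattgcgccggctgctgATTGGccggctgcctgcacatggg
Mylip (chr13:45389492-45389741, plus strand): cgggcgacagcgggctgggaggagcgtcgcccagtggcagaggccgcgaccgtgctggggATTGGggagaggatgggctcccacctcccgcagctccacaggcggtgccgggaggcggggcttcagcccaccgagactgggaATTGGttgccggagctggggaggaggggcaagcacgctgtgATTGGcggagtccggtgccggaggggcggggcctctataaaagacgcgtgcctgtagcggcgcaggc
Abca1 (chr4:53159896-53160145, minus strand): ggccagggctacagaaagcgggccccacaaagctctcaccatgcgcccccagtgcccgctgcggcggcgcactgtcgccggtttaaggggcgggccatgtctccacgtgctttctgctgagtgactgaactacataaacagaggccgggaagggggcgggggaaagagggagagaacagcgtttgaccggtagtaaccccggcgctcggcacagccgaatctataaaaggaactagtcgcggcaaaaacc
The sterol element of Hmgcs1 lay 137 to 129 bases before its start. CCAAT matched 3 times within the printed bases of Hmgcs1 and of Mylip, once in Sc5d, and nowhere in Abca1.

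To ask how each treatment changed these genes, the 12 libraries were fitted together and each of the 14810 genes was tested by the quasi-likelihood method of edgeR. Calls required an adjusted p (Benjamini-Hochberg) under 0.05 together with a log2 fold change of more than 0.25 in either direction, and "rose" and "fell" are used only of called genes. Because RNA was taken from whole cultures, fewer cells of a type and less RNA per cell cannot be told apart. The 3 comparisons with control share the control libraries, and the comparisons that involve IL-4/13 + Inf share those libraries. Shares and median differences of the members are set beside those of all tested genes without matching for expression. The members were more strongly expressed, and both measures can depend on that.

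IL-4/13 alone left the synthesis genes close to control. None of the 34 members was called in either direction by edgeR or by DESeq2, while 2.78% of all tested genes were called up and 2.57% down. At an unadjusted p under 0.05, both tools found 4 members, and the share of all genes at that level was not counted. The median absolute log2 difference was 0.045 for the members and 0.11 for all tested genes, and the 95% interval of the difference lay within 0.25 log2 units of 0 for 27 members and within 0.5 for 33. The exception was Abcg1, whose low counts gave an interval from −0.47 to 0.87.

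At any fold, the adjusted p was below 0.05 for 3 members (8.82%) and 8.60% of all tested genes. Nsdhl, a dehydrogenase that acts in removing the methyl groups at carbon 4 of sterol intermediates, had 168, 172, and 177 CPM in control and 204, 205, and 195 CPM in IL-4/13. The groups did not overlap, and the log2 difference of 0.23 ± 0.05 (SE; adjusted p = 9.0e-04, edgeR) was just inside the fold threshold. Acat2, the cytosolic thiolase that joins acetyl-CoA units at the start of the pathway, was at 303, 299.7, and 305 CPM in control and 315, 349, and 335 CPM in IL-4/13, a log2 difference of 0.14 ± 0.04 (SE, edgeR adjusted p = 0.048). Insig1, which retains SCAP, was the only one of the 3 that was lower, with 140.1, 145, and 149.6 CPM in control and 131, 129.8, and 127 CPM in IL-4/13 and a log2 difference of −0.16 ± 0.05 (SE, edgeR adjusted p = 0.022). Neither Acat2 nor Insig1 kept an adjusted p below 0.05 in every fit that left out a library, with the highest at 0.27 and 0.12. Of the Acat2 transcript, 45.9% of 50-base words also occur in Acat3, so its reads could be split between the genes.

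Inf raised sterol efflux genes and changed few of the synthesis genes past the threshold. Of the 34 members, 4 rose, namely Abcg1 (ENSMUSG00000024030), Abca1 (ENSMUSG00000015243), Sc5d (ENSMUSG00000032018), and Mylip (ENSMUSG00000038175), and 1 fell, Acaca (ENSMUSG00000020532), while 16.3% of all tested genes were called up and 15.3% down. The share of members called, 14.7%, was thus below that of all genes. The median absolute log2 difference was 0.111 for the members and 0.221 for all genes.

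Abca1, which exports cholesterol and phospholipid to apolipoprotein A-I, had 22.9, 18.8, and 24.1 CPM in control and 55.9, 53.0, and 42.6 CPM in Inf. Every Inf library was above every control library, and the third was the lowest of the Inf libraries. The log2 fold change was 1.20 ± 0.10 (SE, a 2.30-fold rise, edgeR adjusted p = 7.9e-11), and it was 1.31 ± 0.09 without the third Inf library. Abcg1, which exports cholesterol to larger lipoproteins, had 1.37, 0.93, and 1.26 CPM in control and 3.32, 2.34, and 3.46 CPM in Inf. The groups did not overlap, and the log2 fold change was 1.33 ± 0.29 (SE, edgeR adjusted p = 3.9e-04), with a 95% interval from 0.74 to 1.93. Mylip had 29.2, 28.5, and 30.2 CPM in control and 37.7, 36.2, and 35.6 CPM in Inf, again without overlap, and rose by 0.32 ± 0.07 on the log2 scale (SE, edgeR adjusted p = 7.6e-04). Stard4, which carries cholesterol between membranes and is a target of SREBP rather than LXR, was the remaining gene of the group and had a log2 difference of −0.14 ± 0.04 (SE, edgeR adjusted p = 0.010), within the fold threshold.

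Among the 11 genes from squalene to cholesterol, only Sc5d was called with Inf. Sc5d, the desaturase that introduces the double bond at carbon 5 of the sterol ring, had 157, 155, and 149 CPM in control and 206, 201, and 216 CPM in Inf. All Inf libraries were higher than all control libraries, and the log2 fold change was 0.44 ± 0.04 (SE, edgeR adjusted p = 2.0e-09). Sqle, squalene epoxidase, an oxygen-requiring early step, had 338, 345, and 345 CPM in control and 288, 307, and 293 CPM in Inf. That log2 difference of −0.21 ± 0.04 (SE, edgeR adjusted p = 9.5e-05) was within the fold threshold, as was that of Cyp51, lanosterol 14-demethylase, at −0.17 ± 0.05 (SE, edgeR adjusted p = 0.0042). Nsdhl was at 191, 200.1, and 210.4 CPM in Inf, a log2 difference of 0.22 ± 0.04 (SE, edgeR adjusted p = 2.1e-04), also uncalled. Thus genes of one linear pathway differed from control in opposite directions, from −0.21 to 0.44.

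Among the 8 genes of fatty acid synthesis, Acaca, the acetyl-CoA carboxylase that makes malonyl-CoA, was called down. It had 81.4, 75.0, and 85.9 CPM in control and 70.4, 72.4, and 60.6 CPM in Inf, with no overlap. The log2 fold change of −0.25 ± 0.06 (SE, edgeR adjusted p = 0.0018) lay at the threshold, and it was called in only 3 of the 12 fits that left out a library. Without the third Inf library, which was the lowest, the log2 difference was −0.18 ± 0.06 and was not called. In the annotation used here, 52.6% of the 50-base words of the Acaca transcript also occur in Gm5182. Fasn, fatty acid synthase, had 408, 359, and 439 CPM in control and 432, 389.7, and 319.6 CPM in Inf, so the groups overlapped, and its 95% interval ran from −0.34 to 0.18 log2 units. Without the third Inf library, its log2 difference was 0.03 (edgeR adjusted p = 0.84).

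At any fold, 16 members (47.1%) had an adjusted p below 0.05 with Inf, 9 higher and 7 lower, against 42.2% of all tested genes. Of the 11 that were not called, 6 lost the adjusted p in some fit that left out a library, namely Elovl6, Mvk, Mvd, Srebf1, Stard4, and Scd1. Without the third Inf library, 15 members passed at any fold, 9 higher and 6 lower. The share of all genes at any fold was not counted in that fit. Of the SREBP regulators, Srebf1 had 59.6, 55.6, and 65.7 CPM in control and 74.3, 69.2, and 62.8 CPM in Inf, a log2 difference of 0.19 ± 0.07 (SE, edgeR adjusted p = 0.023) with overlapping groups. Without the third Inf library, the lowest for Srebf1, this difference was 0.246 (edgeR adjusted p = 0.0023), still within the fold threshold. Insig1 had 167, 157, and 159 CPM in Inf, above all 3 control libraries, with a log2 difference of 0.15 ± 0.05 (SE, edgeR adjusted p = 0.0064). Srebf2 and Scap, the transcription factor and escort of the sterol branch, had log2 differences of −0.00 and −0.10, with intervals from −0.10 to 0.09 and from −0.21 to 0.01. In the mevalonate pathway, no gene was called, and log2 differences ranged from −0.14 for Mvk, mevalonate kinase, to 0.17 for Mvd, the decarboxylase that forms isopentenyl pyrophosphate. Hmgcs1, the synthase that commits acetyl units to the pathway, had 444, 456, and 439 CPM in control and 432, 459.6, and 463 CPM in Inf. Its interval ran from −0.07 to 0.10 log2 units.

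The elongase and desaturases of the fatty acid group were split in direction with Inf, within the fold threshold. Elovl6, which lengthens palmitate, had 186, 178, and 174 CPM in control and 173, 161.5, and 141 CPM in Inf, and its log2 difference of −0.18 ± 0.06 (SE, edgeR adjusted p = 0.012) was −0.11 (edgeR adjusted p = 0.083) without the third Inf library. Scd1 had 312, 321, and 317 CPM in control and 298, 306, and 272 CPM in Inf, a log2 difference of −0.12 ± 0.04 (SE, edgeR adjusted p = 0.038) that was −0.07 (edgeR adjusted p = 0.20) without the third Inf library. Scd2, of the same gene cluster, had 1773, 1713, and 1712 CPM in control and 1961, 1990.3, and 1805 CPM in Inf, a log2 difference of 0.15 ± 0.04 (SE, edgeR adjusted p = 0.0021). Of their transcripts, 4.66% of the 50-base words of Scd1 and 4.01% of those of Scd2 also occur in other genes.

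With all libraries, the adjusted p fell below 0.05 in none of the 5 comparisons for 11 members, at any fold. They were Pmvk, Idi1, and Fdps of the mevalonate pathway, Lss, Msmo1, Ebp, and Dhcr7 of the steps after squalene, Srebf2 and Scap, and Acly and Fasn, the enzymes that supply cytosolic acetyl-CoA and build palmitate from it. Their log2 differences in the 4 pairwise comparisons ran from −0.14 to 0.13. Without the third Inf library these ran from −0.20 to 0.20, and 3 of the 11 passed at any fold. Idi1, the isopentenyl pyrophosphate isomerase, was then at −0.20 with Inf and at 0.20 for IL-4/13 + Inf against Inf (edgeR adjusted p = 0.011 and 0.018). Against Inf, Acly was then at −0.13 and Lss, which cyclizes squalene epoxide to lanosterol, at −0.15 (edgeR adjusted p = 0.010 and 0.021). Control levels were 519.6 ± 14.8 CPM for Msmo1, 602 ± 19.8 CPM for Acly, and 604 ± 34.5 CPM for Srebf2 (SD, n = 3). Dhcr7, which catalyses the last reduction to cholesterol, had 96.4 ± 4.50 CPM (SD, n = 3). In the annotation used here, 26.7% of the exon bases of Fdps overlap Gm43738 on the same strand, and 21.3% of the 50-base words of Idi1 occur in other genes. Fdft1, squalene synthase, shares 10.9% of its 50-base words, and 18.3% of its exon bases lie opposite Ctsb.

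**Figure D2:**
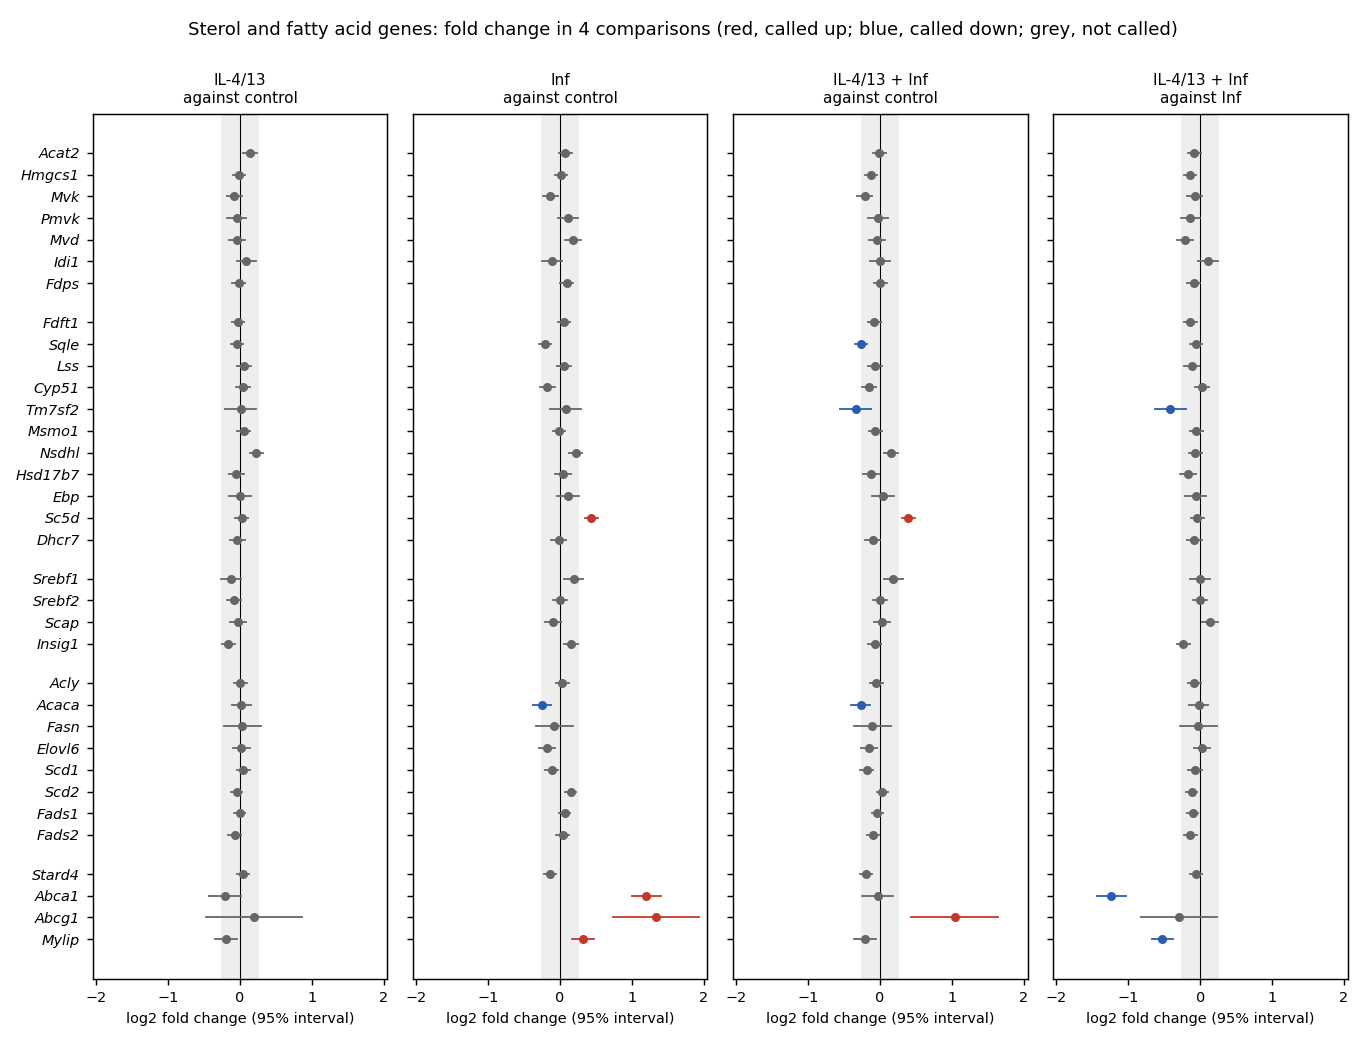
Log2 fold change (x axes) with its 95% interval (lines) of the 34 members, grouped by role, in the 4 pairwise comparisons. The grey band is the fold threshold of 0.25 in either direction, and most members lie inside it in every panel. The points farthest from 0 are Abca1 and Abcg1 with Inf at 1.20 and 1.33, and Abca1 at −1.24 for IL-4/13 + Inf against Inf.

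With IL-4/13 + Inf, the efflux gene Abca1 was at the control level while Sc5d and Abcg1 were raised. Of the 34 members, 2 rose against control, Abcg1 and Sc5d, and 3 fell, Tm7sf2, Acaca, and Sqle, while 13.4% of all tested genes were called up and 11.5% down. Abca1 had 22.1, 21.2, and 20.9 CPM, within the range of the control libraries, and its log2 difference of −0.04 had a 95% interval from −0.25 to 0.18. Abcg1 had 2.28, 1.86, and 3.31 CPM and a log2 fold change of 1.04 ± 0.30 against control (SE, edgeR adjusted p = 0.0067). Without the third IL-4/13 + Inf library, its highest, the log2 difference was 0.80 and the edgeR adjusted p was 0.062. Sc5d had 196, 200.5, and 209 CPM and a log2 fold change of 0.39 ± 0.04 (SE, edgeR adjusted p = 1.7e-08).

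The genes that fell did so by little. Tm7sf2, a sterol reductase that acts on the double bond at carbon 14, had 16.7, 13.4, and 16.0 CPM in control and 12.8, 12.1, and 11.3 CPM in IL-4/13 + Inf. The groups did not overlap, and the log2 fold change was −0.34 ± 0.11 (SE, edgeR adjusted p = 0.013), but it was called in only 9 of the 12 fits that left out a library. In the annotation used here, 12.1% of its exon bases overlap Vps51 on the same strand. Sqle had 296, 281, and 280.1 CPM, below the 338 to 345 CPM of control, with a log2 fold change of −0.26 ± 0.04 (SE, edgeR adjusted p = 4.7e-06, called in 10 of the 12 fits). Acaca had 65.7, 69.1, and 65.9 CPM, all below control, with a log2 fold change of −0.27 ± 0.06 (SE, edgeR adjusted p = 0.0010, called in 11 of the 12). At any fold, the adjusted p was below 0.05 for 14 members (41.2%), 4 higher and 10 lower, against 33.2% of all tested genes. Of the 9 that were not called, 5 lost the adjusted p in some fit that left out a library, namely Elovl6, Cyp51, Srebf1, Mylip, and Hmgcs1. The 10 included Mvk at −0.21, Stard4 at −0.19, and Scd1, the stearoyl-CoA desaturase that forms oleate, at −0.19 on the log2 scale. Without the third Inf library, 16 members passed at any fold in this comparison, 4 higher and 12 lower. No Inf library is compared here, so leaving it out acts through the shared fit, and Sqle stayed at −0.26. All genes called numbered 3688 with all libraries and 3768 without it, and their share at any fold was not counted.

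**Figure D3:**
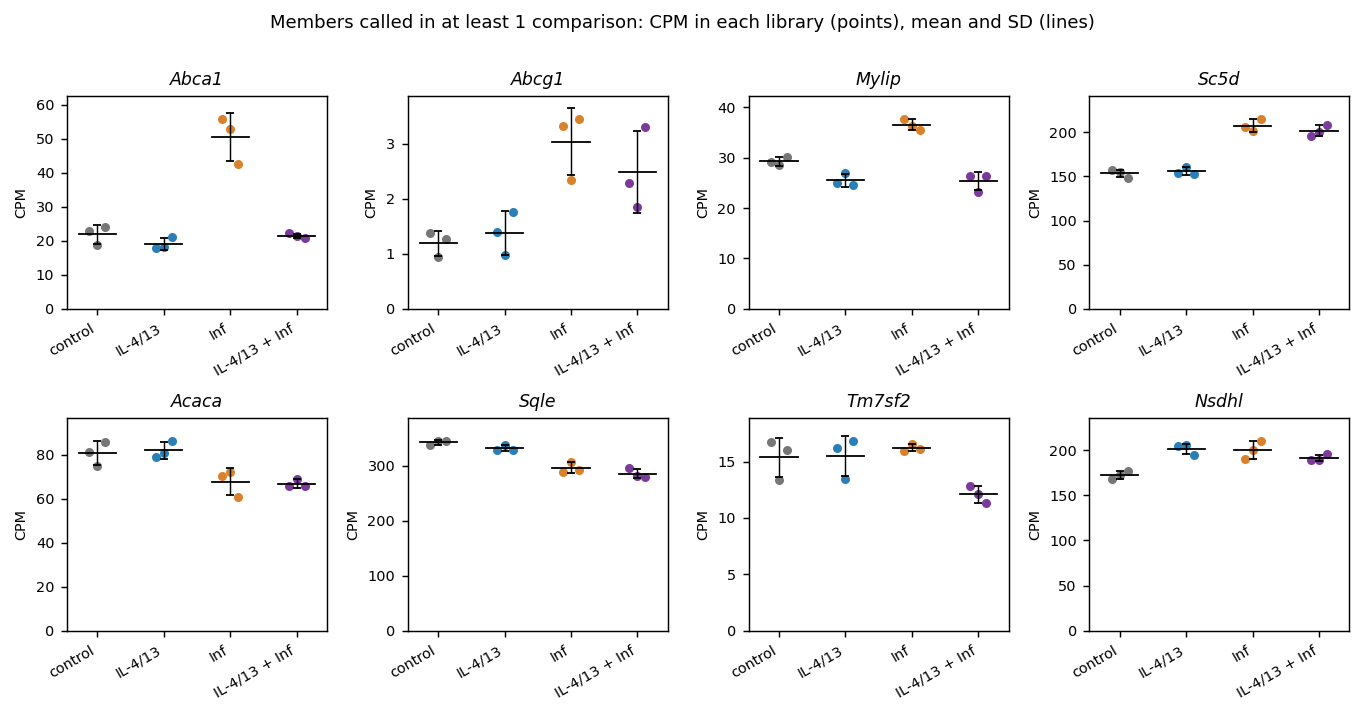
CPM (y axes, each starting at 0) of the 8 members called in at least 1 comparison, in each library (points) by condition, with the mean and SD (lines, n = 3). Abca1 stands at 42.6 to 55.9 CPM in Inf and at 18.0 to 24.1 CPM in the 9 other libraries, while Sc5d is high in both conditions with Inf.

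When IL-4/13 was added to Inf, Abca1, Mylip, and Tm7sf2 fell, and no member rose, whereas 7.55% of all tested genes were called up and 7.00% down. By DESeq2 also, 0 members rose and 3 fell. At an unadjusted p under 0.05 edgeR found 15 members in either direction and DESeq2 found 13. The share of all genes at that level was not counted, so these numbers cannot be set against it. Abca1 went from 42.6 to 55.9 CPM in Inf to 20.9 to 22.1 CPM in IL-4/13 + Inf, a log2 fold change of −1.24 ± 0.10 (SE, edgeR adjusted p = 2.9e-10). Mylip had 26.4, 23.3, and 26.5 CPM in IL-4/13 + Inf, below all 3 Inf libraries, with a log2 fold change of −0.52 ± 0.07 (SE, edgeR adjusted p = 3.4e-06). Tm7sf2 had 16.0, 16.6, and 16.1 CPM in Inf, also above every IL-4/13 + Inf library, and fell by 0.42 on the log2 scale (SE 0.11, edgeR adjusted p = 0.0040). These 3 genes were called in all 12 fits that left out a library. Abcg1 was not called, with a log2 difference of −0.30 ± 0.26 (SE, edgeR adjusted p = 0.47) and an interval from −0.83 to 0.24.

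Small differences in the same comparison lay mostly on the lower side. The fitted log2 difference was below 0 for 30 of the 34 members, against 51.9% of all tested genes, and it was below 0 for 27 to 31 members under the alternative settings. The signs of the members come from the same libraries, which the settings reuse, so they are not independent observations. The median was −0.08 for the members and −0.01 for all genes. At any fold, 11 members (32.4%) had an adjusted p below 0.05, all of them lower, against 22.3% of all tested genes in either direction. Of the 8 that were not called, 6 lost the adjusted p in some fit that left out a library, namely Hsd17b7, Fdft1, Hmgcs1, Fads2, Fads1, and Scd2. Without the third Inf library, 13 members were lower and 1, Idi1, was higher, without a count of all genes at any fold in that fit. Besides the called genes, the 11 members found with all libraries included Insig1, at 136.3, 135.6, and 139.8 CPM in IL-4/13 + Inf, with a log2 difference of −0.23 ± 0.05 (SE, edgeR adjusted p = 2.6e-04). They also included Mvd at −0.21, Hsd17b7, a sterol 3-keto reductase, at −0.17, and Hmgcs1, which had 421, 416, and 388 CPM in IL-4/13 + Inf, at −0.14. Fads1 and Fads2, the neighbouring genes of the desaturases that make highly unsaturated fatty acids, were at −0.11 and −0.14. All of these were within the fold threshold.

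The response to IL-4/13 with Inf was then compared with the response to IL-4/13 without it, as the interaction in the same fit. Of the members, 0 were called up and 2 down, Abca1 and Nsdhl, while 1.52% of all tested genes were called up and 1.59% down. At any fold, 3 members (8.82%) had an adjusted p below 0.05, against 3.39% of all genes, and the third was Acat2 at −0.22 (edgeR adjusted p = 0.045). The edgeR adjusted p of Acat2 was 0.074 with the replicate number as a block and as high as 0.16 when a library was left out, so 2 members stayed below 0.05 in every fit that left out a library. At an unadjusted p under 0.05 both edgeR and DESeq2 found 8 members, again without a count of all genes. DESeq2 also called 0 up and 2 down. For Abca1 the log2 difference of the responses was −1.02 ± 0.14 (SE, edgeR adjusted p = 4.8e-05), from −0.21 ± 0.11 (SE, edgeR adjusted p = 0.26) without Inf and −1.24 with it. Nsdhl had 189.6, 189.0, and 195 CPM in IL-4/13 + Inf, so each of the 3 treated conditions lay above control, and the combination was not above either treatment alone. Its interaction was −0.29 ± 0.06 (SE, edgeR adjusted p = 0.0049), and without the third Inf library it was −0.25 and still called. Mylip had a log2 difference of −0.20 (edgeR adjusted p = 0.12), which did not pass, for IL-4/13 without Inf and of −0.52 with Inf, and the interaction of −0.33 ± 0.11 (SE, edgeR adjusted p = 0.097) did not pass. Tm7sf2 had an interaction of −0.43 ± 0.15 (SE, edgeR adjusted p = 0.12).

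**Figure D4:**
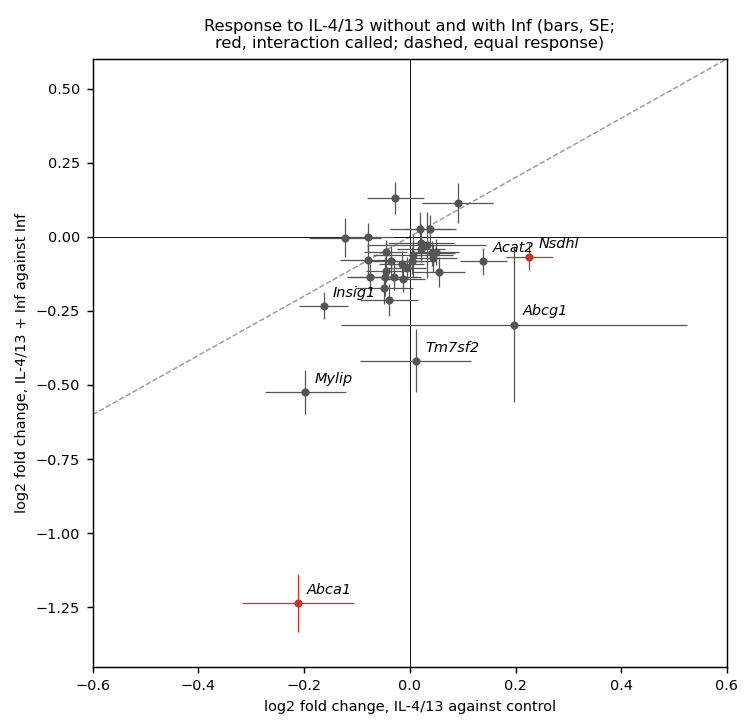
Log2 fold change for IL-4/13 against control (x axis) and for IL-4/13 + Inf against Inf (y axis) of the 34 members (points, with SE). On the dashed line both responses are equal, and the 2 members with a called interaction, in red, are Abca1, at −0.21 and −1.24, and Nsdhl, at 0.23 and −0.07.

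Other genes of sterol and fatty acid metabolism were counted from 4 further lists with 95 genes, of which 85 were tested. With Inf, 9 of 25 tested genes of sterol transport, esterification, LXR, and oxysterol metabolism rose and 0 fell, against 16.3% and 15.3% of all tested genes, with a median log2 difference of 0.11 against 0.01. Ch25h, which makes the oxysterol 25-hydroxycholesterol, had at most 1 count in a control library, 13.6, 11.6, and 12.6 CPM in Inf, and 30.7, 27.3, and 25.9 CPM in IL-4/13 + Inf. Against a floor of 3 counts per library it was at least 70.2-fold higher than control with Inf and at least 156-fold higher with IL-4/13 + Inf, bounds that cover counting error only. Cyp7b1, which hydroxylates oxysterols on the way to bile acids, had 7.09, 4.78, and 6.18 CPM in control and 48.8, 47.7, and 46.9 CPM in Inf, a log2 fold change of 2.98 ± 0.10 (SE, edgeR adjusted p = 1.0e-20).

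These oxysterol genes differed in their response when IL-4/13 was added to Inf. Ch25h rose further, by a log2 fold change of 1.16 ± 0.11 against Inf (SE, edgeR adjusted p = 3.4e-09), with no overlap between the groups. Cyp7b1 fell to 30.4, 30.8, and 34.5 CPM, a log2 fold change of −0.59 ± 0.08 against Inf (SE, edgeR adjusted p = 3.8e-06), and its interaction was called at −0.61 (edgeR adjusted p = 0.026). Rxra, the partner receptor of LXRs, fell in IL-4/13 + Inf by 0.38 on the log2 scale against control (edgeR adjusted p = 1.4e-07). Against Inf its log2 difference of −0.21 was not called, nor was its interaction of −0.05 (edgeR adjusted p = 0.81). With IL-4/13 alone and with Inf, Rxra was at −0.15 and −0.18 against control, within the fold threshold. In this list of 25, 2 genes rose and 2 fell against Inf, shares near the 7.55% and 7.00% of all tested genes, and 6 rose and 2 fell in IL-4/13 + Inf against control, where 13.4% and 11.5% of all genes did.

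In the list of other sterol synthesis and SREBP control genes, 2 of 15 rose and 5 fell with Inf, against 16.3% and 15.3% of all tested genes, with a median log2 difference of −0.01 against 0.01. Insig2, the second SCAP-retaining protein, had 36.4, 37.0, and 34.03 CPM in control, 58.2, 65.3, and 65.8 CPM in Inf, and 51.4, 53.7, and 54.2 CPM in IL-4/13 + Inf. It rose with Inf by 0.82 ± 0.07 on the log2 scale (SE, edgeR adjusted p = 1.1e-11), more than the 0.15 of Insig1 in the same comparison, although the difference between these genes was not tested. Mbtps2, the site-2 protease that releases SREBPs in the Golgi, fell by 0.32 on the log2 scale (edgeR adjusted p = 1.6e-04) and rose by 0.27 when IL-4/13 was added (edgeR adjusted p = 0.0019), with 28.4% of its exon bases overlapping Yy2 on the same strand. Erlin1 and Tmem97, 2 membrane proteins tied to sterol sensing and transport, fell with Inf by 0.49 and 0.33 (edgeR adjusted p = 3.0e-08 and 1.9e-04) and rose against Inf when IL-4/13 was added, by 0.25 and 0.29 on the log2 scale (edgeR adjusted p = 0.0018 and 0.0022). The 0.253 of Erlin1 lay at the fold threshold, and Tmem97 spanned 56.2 to 71.3 CPM within Inf. Genes outside the 34 were not followed through the fits that left out a library.

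In the list of other fatty acid and triglyceride synthesis genes, 5 of 25 rose with Inf and 1 fell, with a median log2 difference of 0.05. The share that rose was near the 16.3% of all tested genes, and 15.3% of all genes fell. Dgat2, which adds the last acyl chain of triglycerides, had 5.89, 5.21, and 5.401 CPM in control, 36.8, 34.3, and 31.9 CPM in Inf, and 34.9, 34.5, and 33.3 CPM in IL-4/13 + Inf. Its log2 fold change was 2.64 ± 0.10 in both comparisons with control (SE, edgeR adjusted p = 1.6e-19 and 1.5e-19). Acsl1, a long-chain acyl-CoA synthetase, rose with Inf by 0.67 ± 0.06 (SE, edgeR adjusted p = 4.2e-10). With IL-4/13 alone, Acsl4, another acyl-CoA synthetase, and Lpin1, a phosphatidate phosphatase, rose by 0.34 and 0.33 (edgeR adjusted p = 2.5e-06 and 0.0069), and Fads3 fell by 0.28 on the log2 scale (edgeR adjusted p = 2.2e-05). These were the 2 up and 1 down of the 25, against 2.78% and 2.57% of all tested genes. Acsl4 and Lpin1 also rose with Inf, by 0.38 and 0.45, and with IL-4/13 + Inf, by 0.54 and 0.43. Fads3 was at −0.21 and −0.23 in those comparisons, within the fold threshold.

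Of 20 tested genes of fatty acid oxidation, 7 rose with Inf and 0 fell, against 16.3% and 15.3% of all tested genes, with a median log2 difference of 0.13. With IL-4/13 added to Inf, 0 rose and 3 fell, against 7.55% and 7.00%, with a median of −0.10. Ppard, a nuclear receptor that promotes fatty acid oxidation, rose with Inf by 0.67 ± 0.05 (SE, edgeR adjusted p = 4.7e-12). Cpt1a, which admits fatty acids to mitochondria, had 109, 109, and 107 CPM in control, 134, 144, and 135 CPM in Inf, and 96.8, 90.7, and 95.7 CPM in IL-4/13 + Inf. It rose with Inf by 0.35 ± 0.05 (SE, edgeR adjusted p = 1.2e-06) and fell by 0.54 ± 0.05 on the log2 scale when IL-4/13 was added (SE, edgeR adjusted p = 1.4e-09). The interaction was called at −0.40 (edgeR adjusted p = 6.9e-04).

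**Figure D5:**
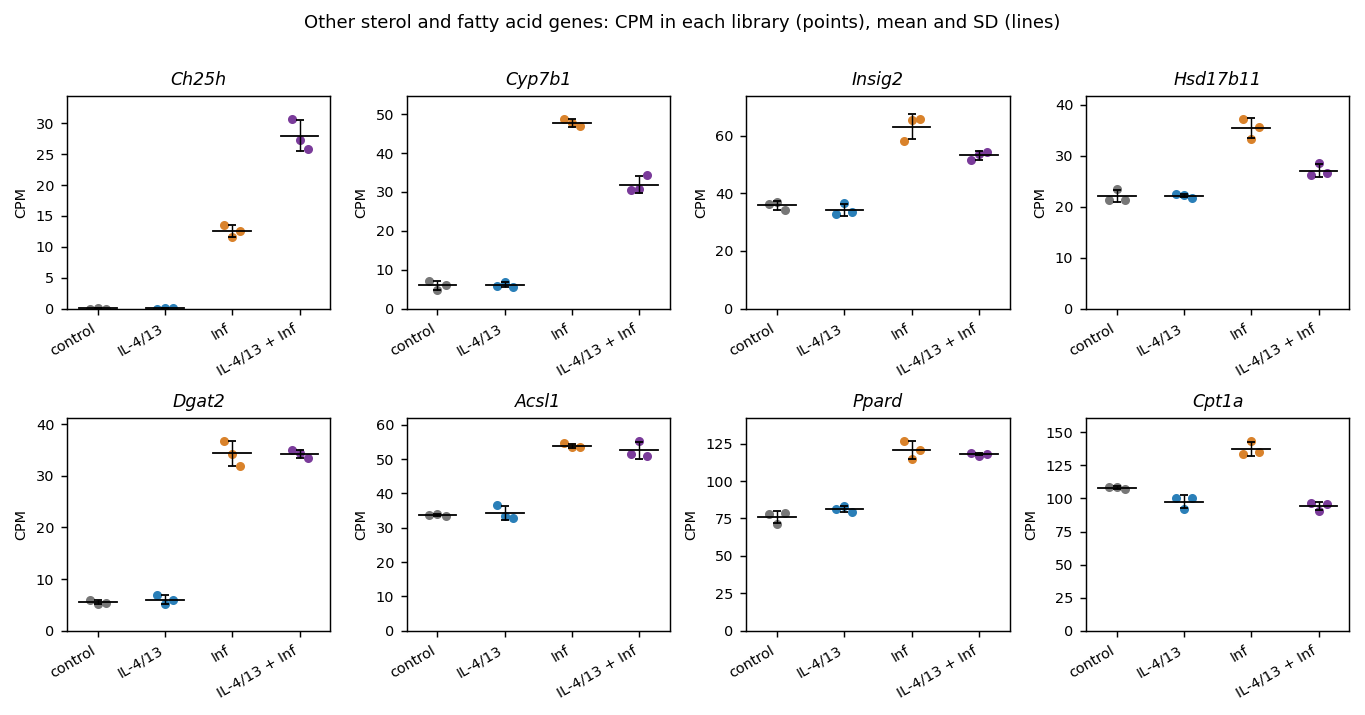
CPM (y axes, each starting at 0) of 8 genes of sterol and fatty acid metabolism outside the 34, in each library (points) by condition, with the mean and SD (lines, n = 3). Ch25h is highest with IL-4/13 + Inf at 25.9 to 30.7 CPM, Cyp7b1 and Insig2 are highest with Inf, and Dgat2 and Acsl1 are high in both conditions with Inf.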

How the data were processed

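The authors sequenced polyadenylated RNA from 12 libraries with a stranded kit and deposited the counts of reads per gene as whole numbers that were not normalized. The submitters' processing notes name STAR, featureCounts, and GRCm39, and the annotation release and strand setting are not given in the sources used here. The 34 members and all lists were chosen with earlier results of these data known.

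Genes were filtered with filterByExpr by condition (minimum count 10, minimum total 15), scaled by TMM, and fitted with edgeR 4.0.16 (R 4.3.3, limma 3.58.1) by robust quasi-likelihood, with 1 coefficient per condition, over all 12 libraries. The study's methods name DESeq2, which was run as an alternative (1.42.0). The Benjamini-Hochberg adjustment covered the 14810 genes of each of the 5 contrasts. CPM are counts over the total of the tested genes times the TMM factor. With 13446005 to 20775769 counts per library and 3 libraries per condition, the spread was shared over conditions. The fits were tested on simulated counts with 200 changed genes.

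All 34 members were named. From the 4 other lists, up to 2 called genes per list, direction, and comparison were named by size of change among those with at least 5 CPM in 1 group. Alternatives were DESeq2, the size factors of DESeq2, totals without TMM, no filter, a mean of at least 50 counts, only the groups compared, a replicate block, each library left out, fold thresholds of 0 and 1, and an adjusted p below 0.01. Shared 50-base words and exon overlap came from GENCODE M21 (GRCm38), another build than that of the counts. Tables used Python 3.11.15 with pandas 2.3.3 and numpy 2.4.6, and figures used matplotlib 3.10.9. No protein sequences were used here.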

Additional observations from a re-analysis of the deposited data

Results flagged for a closer look

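Abca1 and Nsdhl were marked because their response to IL-4/13 differed with and without Inf by the interaction test. For Abca1 the response with Inf minus that without Inf was −1.02 on the log2 scale, with all 3 IL-4/13 + Inf libraries below all 3 Inf libraries. For Nsdhl it was −0.29 on the log2 scale, with all 3 IL-4/13 libraries above all 3 control libraries and overlapping groups between IL-4/13 + Inf and Inf.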

How the results depend on the processing

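Of 3701 log2 fold changes of members under alternatives, 3634 stayed called in the same direction or stayed uncalled. Another 38 newly passed, 29 no longer passed, and 0 changed sign after a call. The direction of values that stayed uncalled was not compared in this count. DESeq2, its size factors, library size alone, no filter, and the replicate block called the same members as above, with 0 up and 0 down for IL-4/13, 4 and 1 for Inf, 2 and 3 for IL-4/13 + Inf, 0 and 3 against Inf, and 0 and 2 for the interaction. The labels do not say whether same-numbered libraries were handled together. Deviations of same-numbered libraries correlated at −0.146 to 0.054 and of others at −0.109 to 0.16, which showed no pairing but cannot exclude it. The block moved the genes called from 792 to 717, 4686 to 4619, 3688 to 3610, 2155 to 2069, and 461 to 410 in the same order. At a mean of at least 50 counts, which leaves out Abcg1, 3 members rose and 0 fell with Inf, 1 rose with IL-4/13 + Inf, and Insig1 was the 4th to fall against Inf. With only the groups compared, 0 fell with Inf. Leaving out a library gave 4 to 5 up and 0 to 1 down for Inf, 1 to 3 up and 1 to 3 down for IL-4/13 + Inf, 3 to 3 down against Inf, and 2 to 3 down for the interaction. Without the third control library, Srebf1 was called up with Inf at 0.26 and with IL-4/13 + Inf at 0.25, and only Sqle fell with IL-4/13 + Inf. Without the third IL-4/13 + Inf library, only Sc5d rose and only Acaca fell in that condition. At a fold threshold of 0, members up and down numbered 2 and 1, 9 and 7, 4 and 10, 0 and 11, and 0 and 3, and at a threshold of 1 they numbered 0 and 0, 2 and 0, 1 and 0, 0 and 1, and 0 and 1. All genes called then numbered 1274 (IL-4/13) and 3308 (against Inf) at a threshold of 0, and 108, 1095, 1096, 238, and 40 at a threshold of 1. At an adjusted p below 0.01, the interaction called 277 genes. With 3 libraries per condition and low counts, differences of Abcg1 under about 1 log2 unit could not be resolved.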
